A study of Mus musculus with 28 samples.

Results

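Cell cycle genes were followed in 28 libraries of mouse bone marrow cells, as 40 genes chosen by symbol for their part in DNA replication or mitosis. All 40 were found among the 25251 genes of the table. There were 17 genes of the G1/S transition and S phase and 23 of G2 and mitosis. The rule that chose them used gene symbols and no measured value, but it was made with earlier results of these data known. The libraries covered 3 populations, each library from a single mouse. ECs (endothelial cells, CD45-Ter119-CD31+) and MSCs (mesenchymal stromal cells, CD45-Ter119-CD31-CD166-Sca1+) were sorted from bone lining cells at 100 cells per library, and MNCs (mononuclear cells) were taken from bone marrow at 200 cells per library. Flt3+/+ mice were C57 BL6, and Flt3 ITD/ITD mice were C57 BL6 with a knock-in of an internal tandem duplication in Flt3, a receptor tyrosine kinase of early blood cells. Both genotypes were 8 to 10 wk old, and the sources used here do not give their sex. There were 5 libraries per genotype for ECs, 5 for MSCs and 4 for MNCs. The knock-in is carried in the germ line, so ECs and MSCs of Flt3 ITD/ITD mice had the allele as well. MNCs are a mixture of marrow cells at many stages. In bulk libraries of this kind, fewer cells of a type and less RNA per cell cannot be told apart.

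Cells that divide switch on these genes in waves. E2F transcription factors turn on the replication genes before S phase, and a later wave driven by B-Myb, FoxM1 and the MuvB complex turns on the genes of G2 and mitosis, whose promoters often hold a TTTGAA element (the cell cycle genes homology region) and CCAAT boxes. In resting cells the DREAM complex keeps many of them silent. In marrow, erythroblasts, myeloid precursors and B cell progenitors divide fast, whereas mature neutrophils do not divide and adult ECs and MSCs divide rarely. Transcripts of the mitotic wave, such as Mki67 and Ccnb1, are therefore widely used to mark dividing cells, whereas several replication genes, such as Pcna, also act in DNA repair.

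Library totals ranged from 6377013 to 33880743 counts. The populations carried their defining markers. Ptprc, which encodes CD45, was at 125 to 161 RPKM (reads scaled to transcript length and library total) in MNCs, at 0 to 4.57 in ECs and at 0 to 0.53 in MSCs, and Cdh5, which encodes VE-cadherin, was at 165 to 252 in ECs and at most 1.43 in the other populations. Pdgfrb, a receptor of mesenchymal cells, was at 11.4 to 24.97 in MSCs. Some stromal libraries stood apart by markers of blood cells. Erythroid markers summed to 5459 RPKM in Flt3+/+ EC replicate 1 and to 2659 in Flt3 ITD/ITD EC replicate 2, and the latter held the 4.57 RPKM of Ptprc and 30073 RPKM of mature neutrophil markers. Flt3 ITD/ITD MSC replicate 5 held 6359 RPKM of mature neutrophil markers. The list called mature neutrophil here also holds Camp, Ltf, Ngp and Lcn2, granule genes of earlier neutrophil stages, so it does not mark mature cells alone.

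Each library was scored by the mean log2 CPM (counts scaled to the library total, with a prior count of 1) of the 40 genes. The scores of MNCs lay far above those of both stromal populations, and ECs and MSCs overlapped. In Flt3+/+ MNCs the scores were 6.66, 6.93, 7.59 and 7.43, and in Flt3 ITD/ITD MNCs 6.65, 6.64, 6.39 and 6.69. ECs scored 2.74, 1.15, 0.60, 0.22 and 1.47 in Flt3+/+ mice and 0.64, 1.42, -0.48, 0.29 and 0.85 in Flt3 ITD/ITD mice. MSCs scored 0.52, 0.20, 0.09, 0.01 and 1.36 in Flt3+/+ mice and -0.13, 0.80, 0.14, -0.47 and 0.48 in Flt3 ITD/ITD mice. The lowest MNC score was thus 6.39 and the highest stromal score 2.74, in the Flt3+/+ EC library with erythroid markers. On average MNCs exceeded ECs by 5.98 and MSCs by 6.57 on the log2 scale, against a within-group SD of 0.64 and 0.44. MSCs differed from ECs by -0.59, which was less than the within-group SD of 0.71. The gap between MNCs and stroma was wider for the mitosis genes than for the replication genes: 7.12 against 4.43 for ECs and 7.84 against 4.87 for MSCs. Population and the number of cells per library (200 against 100) cannot be told apart in these comparisons.

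**Figure D1:**
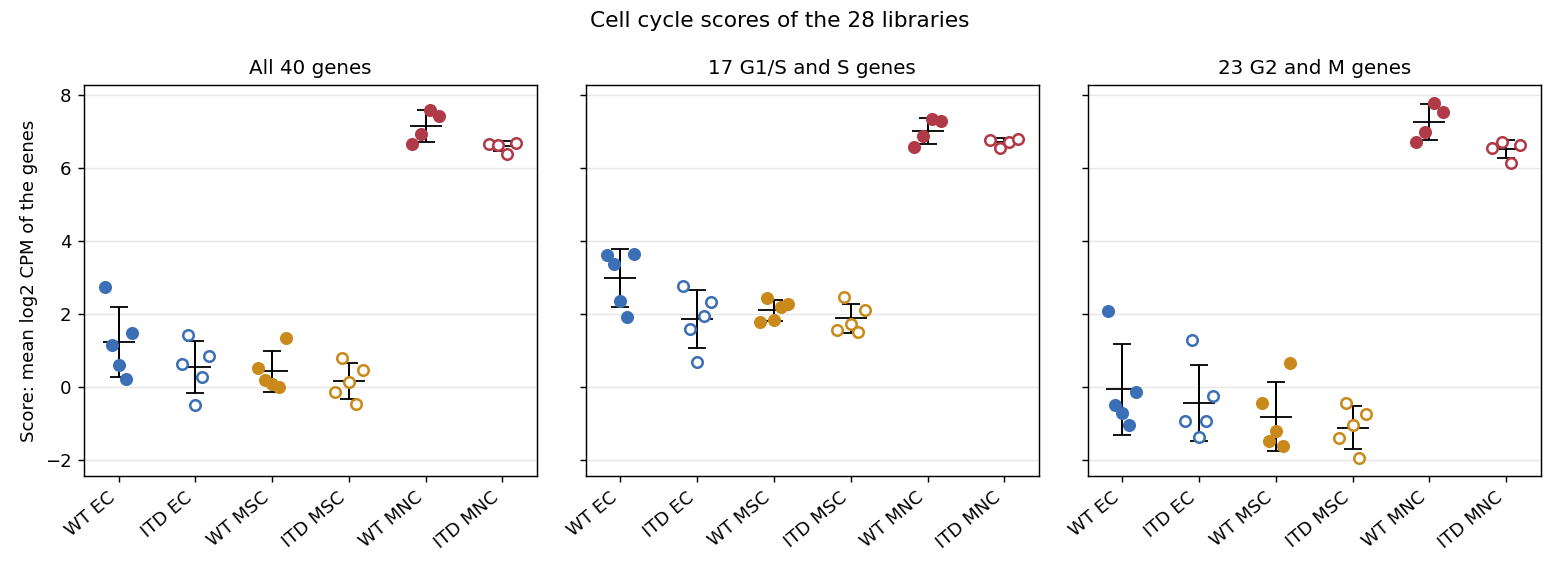
Cell cycle scores of the 28 libraries, as mean log2 CPM of all 40 genes (left), the 17 G1/S and S genes (middle) and the 23 G2 and M genes (right). Each point is a library, filled for Flt3+/+ (WT) and open for Flt3 ITD/ITD (ITD), and bars give the mean ± SD of each group. MNC libraries sit between 6.39 and 7.59 on the left panel, above every EC and MSC library.

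The balance of the waves differed as well. The replication score exceeded the mitosis score in every stromal library, by 0.29 to 3.88 in ECs and by 1.61 to 3.89 in MSCs. In MNCs the scores were nearly level, with a replication minus mitosis difference of -0.14, -0.11, -0.46 and -0.25 in Flt3+/+ libraries and 0.22, -0.15, 0.57 and 0.15 in Flt3 ITD/ITD libraries. The scores are given as a description without a test, since the genes of a score are not independent.

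Gene by gene, 37 of the 40 were higher in MNCs than in ECs and none was lower, where 22.0% of the 16897 genes tested were called higher. A call required an adjusted p below 0.1 in the quasi-likelihood test of edgeR, with Benjamini-Hochberg adjustment over all genes tested, together with mean RPKM that differed the same way by 1 or more on the log2 scale. The RPKM of the lowest MNC library exceeded that of the highest EC library for 31 of the 40, against 9.39% of all genes. Against MSCs, 39 of 40 were higher (22.0% of all genes) and 38 had no overlap (12.2% of all genes). The median log2 difference was 4.80 against ECs and 5.65 against MSCs, where the medians of all genes tested were 0.00 and 0.02. All 23 mitosis genes were called in both comparisons, with medians of 5.19 and 8.28. Of the 17 replication genes, 14 and 16 were called, with medians of 3.25 and 3.73. Where a gene had few reads in stroma, the fitted log2 difference and the ratio of mean RPKM diverged. For Bub1, a kinase of the spindle checkpoint, they were 6.66 and 3.80 against ECs, where a single EC library held 11.7 RPKM around a median of 0.02.

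**Figure D2:**
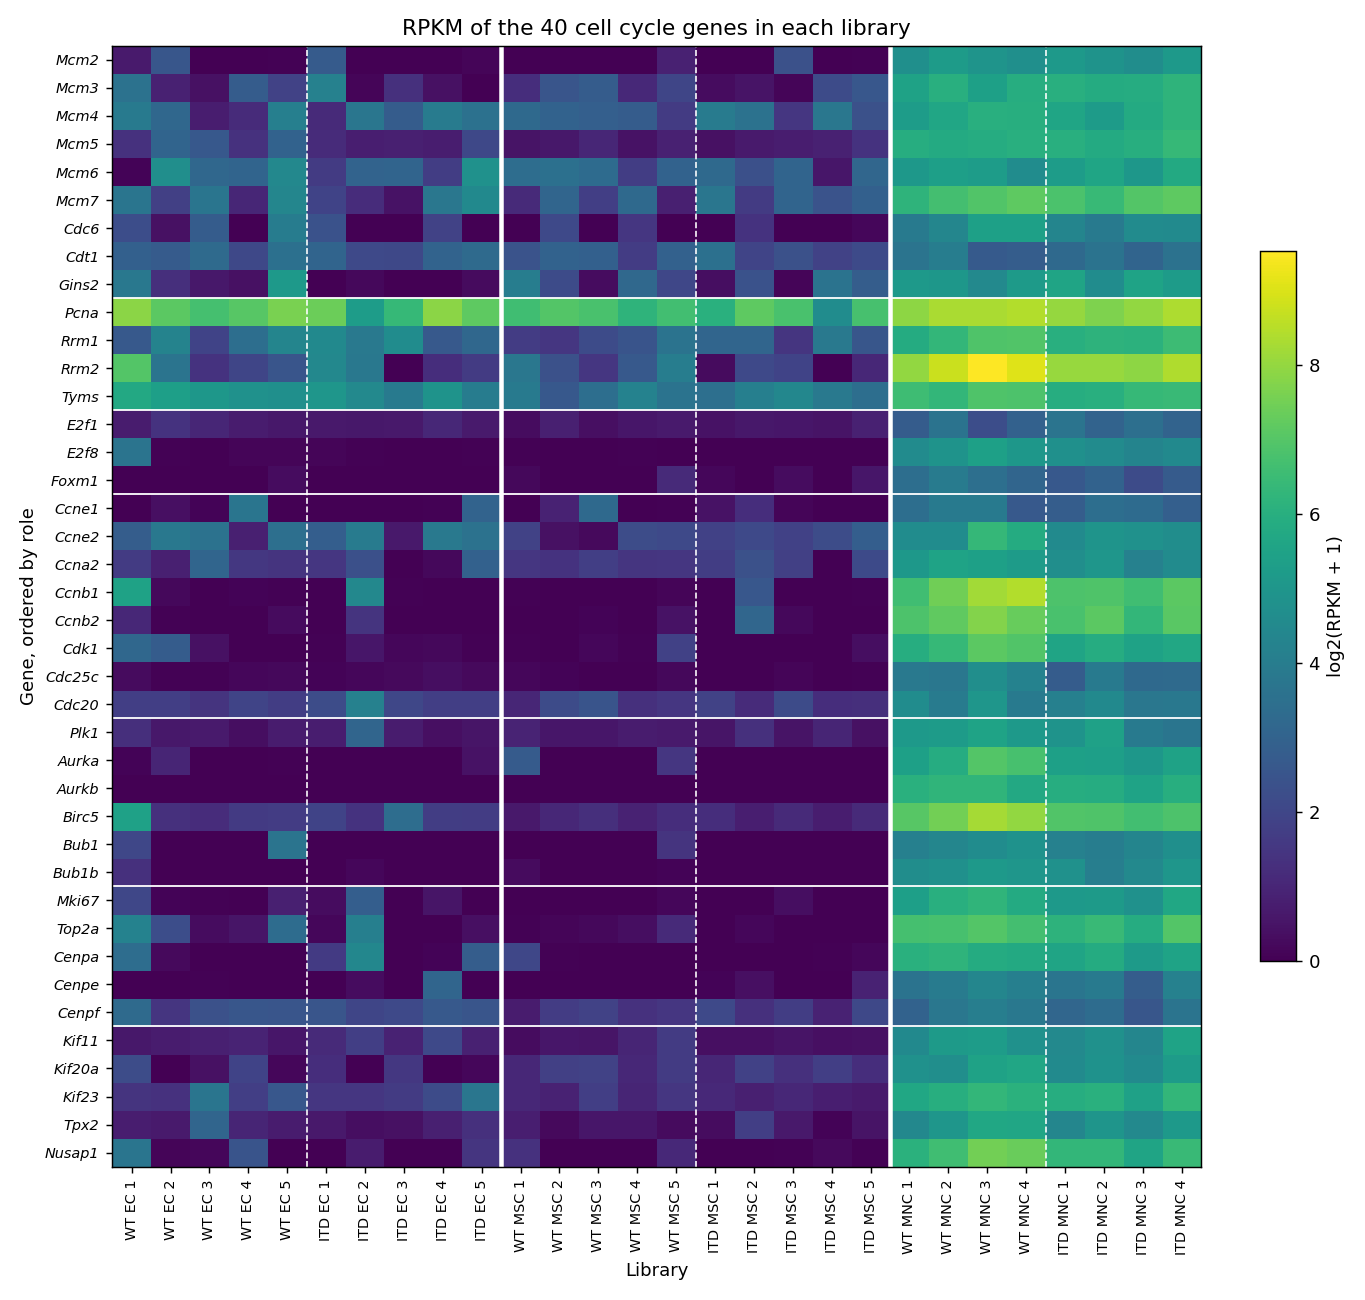
RPKM of the 40 genes, as log2(RPKM + 1), in each of the 28 libraries, with genes ordered by role from replication licensing (top) to the spindle (bottom). White lines part roles and populations and dashed lines part the genotypes. All genes are detected across the 8 MNC libraries, whereas in ECs and MSCs many mitosis genes are near 0 in most libraries.

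Replication licensing was represented by Mcm2, Mcm3, Mcm4, Mcm5, Mcm6 and Mcm7, which encode the subunits of the replicative helicase, by Cdc6 and Cdt1, which load it on origins, and by Gins2, which helps to start it. Mcm7 had the highest level of these in MNCs, from 72.95 to 143 RPKM with a median of 117. In ECs it ranged from 0.38 to 21.8 RPKM with a median of 7.33, and in MSCs from 0.77 to 12.35 with a median of 5.49. The MNC libraries did not overlap either stromal population, and the log2 difference was 3.87 ± 0.66 (SE) against ECs (edgeR adjusted p = 3.25e-05) and 4.35 ± 0.67 against MSCs (edgeR adjusted p = 8.23e-06). Mcm5 was nearly as separate, at 55.35 to 82.3 RPKM in MNCs, 0.70 to 7.30 in ECs and 0.36 to 1.63 in MSCs. Mcm2 was absent or nearly so from most stromal libraries, with medians of 0.035 RPKM in ECs and 0 in MSCs, but stood at 4.80 and 5.64 in an EC library of each genotype and at 4.20 in an MSC library. Its MNC values of 24.7 to 36.5 RPKM lay above all of these. Gins2 had the largest fitted difference of the role against ECs, 5.28 ± 1.0, yet its EC values ran from 0 to 34.6 RPKM around a median of 0.29 and overlapped those of MNCs, 21.5 to 46.9. Without Flt3 ITD/ITD libraries, Gins2 was no longer called against ECs (1.74, edgeR adjusted p = 0.295) or MSCs (2.26, edgeR adjusted p = 0.186). Cdt1 was the exception of the role. It ranged from 5.51 to 15.5 RPKM in MNCs, from 3.15 to 10.4 in ECs and from 2.23 to 10.4 in MSCs, so that the populations overlapped, and the differences of 0.45 (edgeR adjusted p = 0.24) and 0.62 (edgeR adjusted p = 0.106) were not called.

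The genes of DNA building blocks and of the replication clamp differed in their stromal level. Pcna, the sliding clamp of DNA polymerase, ranged from 37.2 to 232 RPKM with a median of 141 in ECs, from 23.7 to 142 with a median of 103 in MSCs and from 205 to 342 with a median of 288 in MNCs. Its difference from ECs of 1.1 ± 0.28 had an edgeR adjusted p of 0.00239 but a log2 ratio of mean RPKM of 0.95, just under the fold rule, and it was called against MSCs (1.49). Rrm2, the small subunit of ribonucleotide reductase that is made in S phase, behaved unlike Pcna. It ranged from 237 to 738 RPKM in MNCs, from 0 to 125 around a median of 3.80 in ECs and from 0.02 to 15.6 around a median of 3.04 in MSCs. The log2 difference was 4.80 ± 0.98 against ECs (edgeR adjusted p = 0.00026) and 6.69 ± 1.06 against MSCs (edgeR adjusted p = 1.15e-05). Rrm1, the large subunit, which is less bound to S phase, ranged from 2.76 to 24.1 RPKM in ECs and from 56.6 to 123 in MNCs. Tyms, thymidylate synthase, ranged from 14.3 to 52.3 in ECs, 5.24 to 20.2 in MSCs and 59.6 to 118 in MNCs, and its log2 difference from ECs was 1.44 ± 0.19.

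Of the 3 transcription factors, E2f8, a repressor of the E2F family, had the highest level in MNCs, at 18.9 to 41.9 RPKM, against 0 to 11.55 around a median of 0.04 in ECs and at most 0.05 in MSCs. Its log2 difference was 6.65 ± 0.96 against ECs (edgeR adjusted p = 3.16e-06) and 10.46 ± 1.12 against MSCs (edgeR adjusted p = 3.16e-08). Foxm1, which drives the mitotic wave, ranged from 3.55 to 14.6 RPKM in MNCs and reached at most 0.26 in ECs and 1.2 in MSCs. It had the largest difference from ECs of the 3, 8.56 ± 1.33 (edgeR adjusted p = 9.52e-06). E2f1, an activator of replication genes, was low but present in all stromal libraries, at 0.52 to 1.62 RPKM in ECs and 0.26 to 0.83 in MSCs, and stood at 3.78 to 11.8 in MNCs.

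Of the cyclins, Cdk1 and its regulators, 7 of 8 were called higher against ECs and all 8 against MSCs. Ccnb1 and Ccnb2 encode the B cyclins that take cells into mitosis with the kinase Cdk1. Ccnb1 ranged from 95.7 to 340.4 RPKM in MNCs with a median of 128. Its medians were 0.03 in ECs and 0.015 in MSCs, but single libraries reached 43.55 and 4.99. Ccnb2 had the largest difference of the role from ECs, 8.85 ± 1.42 (edgeR adjusted p = 1.39e-05), with 78.75 to 215 RPKM in MNCs and at most 1.72 in ECs and 7.96 in MSCs. Cdk1 ranged from 43.5 to 138 RPKM in MNCs, with medians of 0.135 in ECs and 0.02 in MSCs, and differed by 6.73 ± 1.2 from ECs and 8.81 ± 1.34 from MSCs. The E cyclins, partners of Cdk2 at the start of S phase, were nearer to stroma. Ccne2 ranged from 0.56 to 14.46 RPKM in ECs, 0.18 to 6.15 in MSCs and 22.7 to 80.0 in MNCs, the smallest called difference of the role from ECs (2.16 ± 0.56). Ccne1 had medians of 0.03 and 0.07 RPKM in ECs and MSCs but reached 12.02 and 8.51 in single libraries, which overlapped the 5.38 to 14.3 of MNCs, and its difference from ECs was not called (2.49, edgeR adjusted p = 0.168). Against MSCs it was called (3.31, edgeR adjusted p = 0.0741), but not among Flt3+/+ libraries alone (2.41, edgeR adjusted p = 0.414). Ccna2, the A cyclin of S and G2, differed by 3.64 and 3.73, and Cdc25c, a phosphatase that activates Cdk1, by 6.64 and 7.97. Cdc20, which directs the anaphase-promoting complex, was present in all stromal libraries, at 1.02 to 17.1 RPKM, and differed by 2.32 and 2.79.

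The mitotic kinases and checkpoint genes had the widest differences of the 7 roles, with medians of 7.39 against ECs and 9.19 against MSCs, and all 6 were called. Aurkb, the kinase of the chromosomal passenger complex, ranged from 45.5 to 74.9 RPKM in MNCs. It had 1 count in each of 3 EC libraries and 0 in the other 7, and 0 in all 10 MSC libraries. Against the floor of 3 counts per library, taken as the smallest number the depth can show and covering counting error only, Aurkb was at least 919-fold higher in MNCs than in MSCs. No fold is given against ECs, where it had 1 count at most. Birc5 (survivin), a partner of Aurkb in the same complex, was never at 0 in stroma, from 1.30 to 42.6 RPKM in ECs and 0.59 to 1.41 in MSCs, against 98.9 to 302 in MNCs. It had the smallest difference of the role from ECs, 4.27 ± 0.46 (edgeR adjusted p = 4.08e-08). Aurka, the kinase of spindle poles, and Bub1b, a checkpoint kinase, were at 0.97 and 1.53 RPKM at most in ECs and differed by 8.77 and 8.12. Plk1, which acts from centrosomes to cytokinesis, was seen in every stromal library, at 0.29 to 7.57 RPKM, and at 12.02 to 44.9 in MNCs. Bub1 lost its call against ECs when only Flt3+/+ libraries were compared (2.90, edgeR adjusted p = 0.3).

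Among genes of chromosomes and centromeres, Top2a, the topoisomerase that untangles replicated DNA, had the highest level in MNCs, from 58.4 to 126 RPKM with a median of 103. In ECs it ran from 0 to 17.7 around a median of 0.375 and in MSCs from 0 to 1.17 around a median of 0.07. It differed by 4.5 ± 1.09 from ECs (edgeR adjusted p = 0.00143) and by 9.74 ± 1.38 from MSCs (edgeR adjusted p = 2.31e-06). Mki67, whose Ki-67 protein coats mitotic chromosomes, ranged from 27.3 to 73.9 RPKM in MNCs, 0 to 6.17 in ECs and 0 to 0.27 in MSCs, and differed by 5.58 ± 1.2 from ECs (edgeR adjusted p = 0.000463). Cenpa, the histone of centromeres, had medians of 56.1 RPKM in MNCs, 0.12 in ECs and 0 in MSCs. The motor Cenpe had a median of 0 in both stromal populations and 14.2 in MNCs, although an EC library at 7.66 exceeded the lowest MNC library at 6.09. Cenpf, a large protein of the kinetochore, had the smallest called difference of all 40 genes from ECs, 0.96 ± 0.30 (edgeR adjusted p = 0.0113), with 1.76 to 8.91 RPKM in ECs and 4.90 to 15.7 in MNCs. Its ranges overlapped, as did those of Cdt1.

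All 5 spindle genes were called, and the MNC libraries overlapped neither stromal population for any of them. Nusap1, which bundles microtubules, had the highest MNC level and the largest difference from ECs, 6.39 ± 1.33 (edgeR adjusted p = 0.000329), at 45.8 to 180.25 RPKM in MNCs, 0 to 12.05 in ECs and 0 to 1.57 in MSCs. The kinesins differed in their stromal level. Kif23, of the central spindle, was at 1.56 to 12.3 RPKM in ECs and 42.9 to 79.3 in MNCs (4.06 ± 0.41). Kif11, which pushes spindle poles apart, was at 0.51 to 3.28 and 19.6 to 44.8 (4.89 ± 0.38). Kif20a, needed in cytokinesis, had a lower median in ECs (0.24) than in MSCs (1.825), and Tpx2, which activates Aurka, was at 0.28 to 7.52 RPKM in ECs and 19.51 to 49.9 in MNCs.

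The promoters of an S phase and a mitosis gene are shown to set the letters of the waves beside these levels. Each is the stretch of 250 bases before the RefSeq start on GRCm38.p6, written in the direction of transcription. Ccnb2 lies on chromosome 9, minus strand, with its promoter at chr9:70421555-70421804, and Mcm7 on chromosome 5, minus strand, with its promoter at chr5:138171884-138172133, inside the longer gene model of GENCODE, which ends at 138172422. Capitals mark matches on either strand to the TTTGAA element, the CCAAT box and the E2F-type motif TTTNNCGC, so that some appear as reverse complements.
Ccnb2: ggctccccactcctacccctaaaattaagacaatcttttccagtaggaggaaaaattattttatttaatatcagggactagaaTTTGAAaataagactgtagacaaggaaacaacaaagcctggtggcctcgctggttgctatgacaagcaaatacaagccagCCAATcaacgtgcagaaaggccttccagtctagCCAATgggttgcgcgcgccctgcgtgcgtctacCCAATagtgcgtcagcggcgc
Mcm7: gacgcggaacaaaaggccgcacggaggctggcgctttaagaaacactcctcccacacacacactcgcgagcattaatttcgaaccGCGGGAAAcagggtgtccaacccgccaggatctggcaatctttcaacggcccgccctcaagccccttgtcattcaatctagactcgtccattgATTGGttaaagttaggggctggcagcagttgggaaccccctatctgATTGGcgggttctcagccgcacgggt
The bases shown for Ccnb2 held 1 TTTGAA and 3 CCAAT matches and no TTTNNCGC, with that TTTGAA match upstream of all CCAAT matches. Those shown for Mcm7 held 1 TTTNNCGC and 2 CCAAT matches and no TTTGAA. In the longer windows used below, which run past the start, Ccnb2 had 2 TTTGAA matches and Mcm7 had 2 TTTNNCGC and 3 CCAAT matches. The further matches are not among the bases shown, and their positions are not given here. The order of TTTGAA and CCAAT in Ccnb2 thus holds for the bases shown only.

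A promoter was at hand for 31 of the 40 genes, 14 of replication and 17 of mitosis. In windows from 250 bases before to 50 after the start, TTTGAA was found in 12 of the 17 mitosis genes (70.6%) and 2 of the 14 replication genes (14.3%), where 20.2% of 27025 gene symbols held it. CCAAT was found in 88.2% and 64.3%, against 41.1% of all. TTTNNCGC was found in 7 of the 14 replication genes and 1 of the 17 mitosis genes, Cdk1 (5.88%), against 5.93% of all. These are matches of letters on either strand in a fixed window, not sites of binding. Promoters of Aurkb, Gins2, Kif20a, Mcm4, Tpx2, Foxm1, Ccna2, Cdc25c and Ccne2 were not analyzed here.

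In stroma fewer of the genes were detected per library. Each MNC library had more than 3 counts for all 40 genes, whereas EC libraries had 23 to 35 such genes and MSC libraries 21 to 34. Over 3 counts in every library were 17 of the genes in ECs and 19 in MSCs. For mitosis these were Cdc20, Plk1, Birc5, Cenpf, Kif11, Kif23 and Tpx2 in both populations and Kif20a in MSCs. The other mitosis genes ranged widely. In ECs, Ccna2 and Mki67 were over 3 counts in 9 of 10 libraries, Top2a in 8 and Cdk1 in 7, but Ccnb1 and Ccnb2 in 3, Aurka in 2 and Aurkb in 0. In MSCs Ccna2 was over 3 counts in 9 libraries, Top2a and Foxm1 in 5, Ccnb2 in 3, Ccnb1 and Mki67 in 2 and Aurkb in 0. For the median mitosis gene, the highest library held 53.9% of the RPKM summed over 10 EC libraries and 53.2% in MSCs, where the median over all 40 genes was 44.7% and 28.3% and that over all genes tested 26.4% and 22.3%. In MNCs the share was 18.7%, against 20.8% for all genes tested.

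Some libraries held the highest value more often than others. Among ECs, Flt3+/+ replicate 1 was highest for 11 genes, 8 of them of mitosis, Flt3+/+ replicate 5 for 7, 3 of them of mitosis, and Flt3 ITD/ITD replicate 2 for 6, 5 of them of mitosis. Rrm2 at 125 RPKM, Birc5 at 42.6 and Ccnb1 at 43.55 were among the values of Flt3+/+ replicate 1, and Plk1 at 7.57 and Mki67 at 6.17 among those of Flt3 ITD/ITD replicate 2. The mitosis scores of Flt3+/+ replicate 1 and Flt3 ITD/ITD replicate 2 were 2.10 and 1.30, and those of the other 8 EC libraries ran from -1.35 to -0.13, the highest in Flt3+/+ replicate 5. Erythroid markers summed to 5459 and 2659 RPKM in the libraries of the 2 highest mitosis scores. They also summed to 599.6 in Flt3 ITD/ITD replicate 1 and to 361.9 in Flt3+/+ replicate 3, with mitosis scores of -0.93 and -0.69, and to 34.5 to 80.4 in the other 6, with 74.4 in Flt3+/+ replicate 5. The erythroid score (mean log2 CPM of 13 markers) was 5.88 in Flt3+/+ replicate 1, where the sum of myeloid precursor markers was 20.6 RPKM, and the myeloid precursor score was 2.63 in Flt3 ITD/ITD replicate 2. Among MSCs, Flt3+/+ replicate 5 was highest for 7 genes, 6 of them of mitosis, and had a mitosis score of 0.67, against -1.94 to -0.43 in the other 9. Its pan-leukocyte score was 3.15 and its myeloid precursor markers summed to 68.3 RPKM. Flt3+/+ MSC replicate 3 and Flt3 ITD/ITD MSC replicate 2 were each highest for 6 genes, 4 and 5 of them of mitosis. Their mitosis scores were -1.19 and -0.43 and their myeloid precursor markers summed to 4.59 and 0.01 RPKM. Flt3 ITD/ITD MSC replicate 5, with a pan-leukocyte score of 4.72, had a mitosis score of -0.73. The part of other cell types in these values was not tested.

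Between the stromal populations, 15 of the 40 genes were called lower in MSCs than in ECs and 1 was higher, where 16.3% of all genes were called lower. No gene had ranges apart, 35 of the 40 log2 differences were negative, and the median was -0.96 (all genes 0.01). The lower genes were Mcm5, Rrm1, Rrm2, Tyms, E2f8 and Ccne2 of the replication genes, and Ccnb1, Cdc25c, Birc5, Mki67, Top2a, Cenpa, Cenpf, Kif23 and Nusap1 of the mitosis genes. Of these, E2f8, Ccnb1, Cdc25c, Cenpa and Nusap1 failed the filter on low counts within ECs and within MSCs, and Mki67 failed it within MSCs. They were tested in the fit over all 28 libraries, where MNC counts also entered the filter. Cdc25c had 1 to 11 counts in ECs and 0 to 10 in MSCs. Tyms (-0.90 ± 0.18, edgeR adjusted p = 0.000377) and Mcm5 (-1.54 ± 0.34, edgeR adjusted p = 0.000992) had values in all 20 libraries. For Tyms the medians were 28.025 RPKM in ECs and 12.4 in MSCs, and for Mcm5 1.555 and 0.66, with overlap in both. Top2a differed by -5.24 ± 1.15 (edgeR adjusted p = 0.000892) and Mki67 by -4.42 ± 1.15 (edgeR adjusted p = 0.00396). The gene called higher was Foxm1, by 3.51 ± 1.09 (edgeR adjusted p = 0.0147), from values of 0 to 0.26 RPKM in ECs and 0 to 1.2 in MSCs.

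The calls of low genes rested on few libraries. Leaving out each of the 28 libraries in turn left 13 to 20 genes called in either direction, and among Flt3+/+ libraries alone 9 were called, all lower (11.7% of all genes lower). Without Flt3 ITD/ITD EC replicate 2 and MSC replicate 5, 13 were lower (16.0% of all genes) and 2 higher (Ccnb2 and Foxm1), and without Flt3+/+ EC replicate 1 as well, 9 were lower (15.9% of all genes) and 3 higher (Ccnb1, Ccnb2 and Foxm1). In that last comparison Top2a stayed called (-2.35, edgeR adjusted p = 0.0415), Mki67 did not (-1.90, edgeR adjusted p = 0.137), and Ccnb1 turned from -4.89 to 2.89 (edgeR adjusted p = 0.0951). The calls of Rrm2 (-1.89, edgeR adjusted p = 0.0916) and Rrm1 (-0.89, edgeR adjusted p = 0.09) lay close to the threshold, and each was lost in 15 of the 28 comparisons that left out a library. Over these Rrm2 ran from -2.18 to -0.68, the latter without Flt3+/+ EC replicate 1 (edgeR adjusted p = 0.529). Foxm1 was at 2.18 without Flt3+/+ MSC replicate 5 (edgeR adjusted p = 0.0995).

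Between genotypes, none of the cell cycle genes was called in ECs or MSCs. In ECs 24 of the 40 passed the filter on low counts, and 16 did not, among them Ccnb1, Cdk1, Aurkb and Bub1. By the quasi-likelihood test none of the 24 was called (0.00810% of the 12351 genes in the fit), and edgeR's exact test called none (0.130% of all genes). DESeq2 called 2, both lower (1.30% of all genes), Bub1 and Gins2. Bub1 was at 3.12, 0.02, 0.02, 0 and 11.66 RPKM in Flt3+/+ ECs and at most 0.02 in Flt3 ITD/ITD ECs. Gins2 was at 12.98, 1.42, 0.53, 0.36 and 34.62 RPKM against 0, 0.15, 0, 0 and 0.22. All Flt3+/+ libraries of Gins2 thus lay above all Flt3 ITD/ITD libraries in RPKM, with 5 to 1230 counts against 0 to 6. At an unadjusted p below 0.05 there were 2 of 24, against 5.07% of all genes tested. Mcm5 was at 1.55, 7.30, 5.18, 1.56 and 7.05 RPKM in Flt3+/+ ECs and at 1.23, 0.74, 0.81, 0.70 and 3.15 in Flt3 ITD/ITD ECs. All but 1 of the Flt3 ITD/ITD libraries lay below all Flt3+/+ libraries, and the log2 difference was -1.79 ± 0.73 (edgeR unadjusted p = 0.0335). Kif11 was at 0.53, 0.67, 0.80, 0.94 and 0.51 RPKM in Flt3+/+ ECs and at 1.18, 2.37, 0.86, 3.28 and 0.85 in Flt3 ITD/ITD ECs. Its ranges overlapped, and the difference was 1.35 ± 0.59 (edgeR unadjusted p = 0.0425). Of the 24 log2 differences 16 were negative, with a median of -0.23. The score differed by -0.69 between genotypes, less than the within-group SD of 0.85, and by -0.30 without Flt3+/+ replicate 1. By wave, the replication score differed by -1.12 (within-group SD 0.79), with overlap of the groups, and the mitosis score by -0.38 (within-group SD 1.15). The score of 45 other replication genes was at 2.44 ± 0.45 (SD, n = 5) in Flt3+/+ ECs, against 1.47 ± 0.47 in those of Flt3 ITD/ITD mice. These are given without a test.

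In MSCs 24 genes passed the filter as well. None was called (0.0295% of 13574 genes tested), edgeR's exact test called none (0.147%) and DESeq2 called Aurka lower and Cenpe higher (1.29% called in either direction), each with reads in few libraries. Top2a had an unadjusted p below 0.05, against 4.24% of all genes tested. It was at 0.04, 0.10, 0.15, 0.28 and 1.17 RPKM in Flt3+/+ MSCs and at 0.01, 0.11, 0, 0 and 0.02 in Flt3 ITD/ITD MSCs, all near the lower limit of these libraries, with a difference of -3.46 (edgeR unadjusted p = 0.0265). There were 12 negative differences among the 24, with a median of 0.00. The score differed by -0.27, less than the within-group SD of 0.52, and by -0.04 without Flt3+/+ replicate 5. The replication and mitosis scores differed by -0.22 and -0.30, against within-group SDs of 0.35 and 0.78.

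In MNCs all 40 genes were tested. By the quasi-likelihood test none was called (0.0144% of the 13926 genes in the fit), but most differences were negative. The log2 difference of Flt3 ITD/ITD against Flt3+/+ was negative for 36 of the 40 genes, with a median of -0.64, where the median of all genes tested was -0.01. At an unadjusted p below 0.05, 17 of the 40 were lower in Flt3 ITD/ITD and none higher, against 5.0% of all genes tested. They were Rrm2, Tyms, E2f8 and Ccne2 of the replication genes and Foxm1, Ccna2, Ccnb1, Ccnb2, Cdk1, Cdc25c, Aurka, Aurkb, Birc5, Mki67, Top2a, Cenpa and Nusap1 of the mitosis genes. Adjusted over all genes, those 17 had edgeR p-values of 0.397 to 0.461. RPKM ranges were apart for 4, against 0.984% of all genes. By the same fold rule DESeq2 called 2 of the 40 lower (0.820% of all genes) and edgeR's exact test 2 (0.337%), in each case Aurka and Cdk1. By adjusted p below 0.1 alone, DESeq2 gave 8 of the 40, all lower (Aurka, Birc5, Ccna2, Cdk1, Cenpa, Foxm1, Mki67 and Rrm2), against 1.38% of 14642 genes. The score differed by -0.56, against a within-group SD of 0.32, the replication score by -0.31 (SD 0.26) and the mitosis score by -0.75 (SD 0.39).

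The 4 genes with ranges apart were Foxm1, Cdk1, Ccna2 and Birc5. Foxm1 was at 9.95, 14.6, 10.2 and 7.55 RPKM in Flt3+/+ MNCs and at 5.21, 6.89, 3.55 and 5.67 in Flt3 ITD/ITD MNCs. All Flt3+/+ libraries were above all Flt3 ITD/ITD libraries, the means were 10.6 ± 2.93 and 5.33 ± 1.38 (SD, n = 4 each), and the log2 difference was -1.17 ± 0.25 (edgeR unadjusted p = 0.000918, adjusted p = 0.397). With DESeq2 the difference was -1.18 (DESeq2 adjusted p = 0.003). Foxm1 was not called there because its ratio of mean RPKM fell just under the fold rule. Cdk1 was at 61.0, 82.0, 138 and 121 RPKM against 45.8, 58.75, 43.5 and 52.1. The highest Flt3 ITD/ITD library came close to the lowest Flt3+/+ library, and replicates 3 and 4 of Flt3+/+ were far above the rest (-1.27 ± 0.33, edgeR unadjusted p = 0.00353, adjusted p = 0.397). Birc5 was alike, at 131, 179, 302 and 249.85 RPKM against 122, 119, 98.9 and 115 (-1.15 ± 0.33). Ccna2 was more even, at 32.7, 45.3, 41.7 and 36.7 RPKM against 24.9, 30.9, 17.4 and 23.02 (-0.91 ± 0.22, edgeR unadjusted p = 0.00261, adjusted p = 0.397).

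By role, the licensing genes stood nearest to 0. Their median log2 difference was -0.13, none of the 9 had an unadjusted p below 0.05, and the 6 Mcm genes lay between -0.26 and 0.14. Mcm2 was at 25.65, 36.5, 29.5 and 25.8 RPKM in Flt3+/+ MNCs and at 35.1, 29.0, 24.7 and 35.1 in Flt3 ITD/ITD MNCs, with the groups mingled (-0.13 ± 0.18). The cyclins, Cdk1 and its regulators lay farthest below 0, with a median of -1.02 and 6 of 8 at an unadjusted p below 0.05. Ccnb1 was at 95.7, 174, 295 and 340.4 RPKM against 117, 118, 97.5 and 139, so that Flt3+/+ replicate 1 was the lowest of all 8 (-1.23 ± 0.42, edgeR unadjusted p = 0.016). Ccne2 was at 23.54, 24.1, 80.0 and 56.55 RPKM against 22.7, 29.8, 27.0 and 24.8, where only replicates 3 and 4 of Flt3+/+ stood above the rest (-1.12 ± 0.46). The median was -0.64 for building blocks and the clamp, -0.71 for transcription factors, -0.69 for mitotic kinases, -0.63 for chromosomes and -0.67 for the spindle.

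Within these roles single genes differed in pattern. Mki67 was at 40.3, 64.3, 73.9 and 55.3 RPKM in Flt3+/+ MNCs and at 33.6, 36.0, 27.3 and 50.7 in Flt3 ITD/ITD MNCs, which overlapped in 1 library of each group (-0.91 ± 0.28, edgeR unadjusted p = 0.0088). Aurka was at 42.03, 58.9, 125 and 106 RPKM against 41.3, 40.5, 32.3 and 43.6 (-1.36 ± 0.40), the largest difference of the 40. Rrm2 was at 251, 429, 738 and 541 RPKM against 268, 265, 237 and 334 (-1.10 ± 0.36). In Aurka and Rrm2 the Flt3+/+ replicate 1 fell within the range of Flt3 ITD/ITD and replicates 3 and 4 were the highest. Pcna was at 241, 315, 321 and 342 RPKM against 261, 205, 254 and 325, with overlap throughout (-0.45 ± 0.22). E2f1 differed by 0.09 and Gins2 by 0.11, whereas E2f8 differed by -0.71 and Cdc6 by -0.85.

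**Figure D3:**
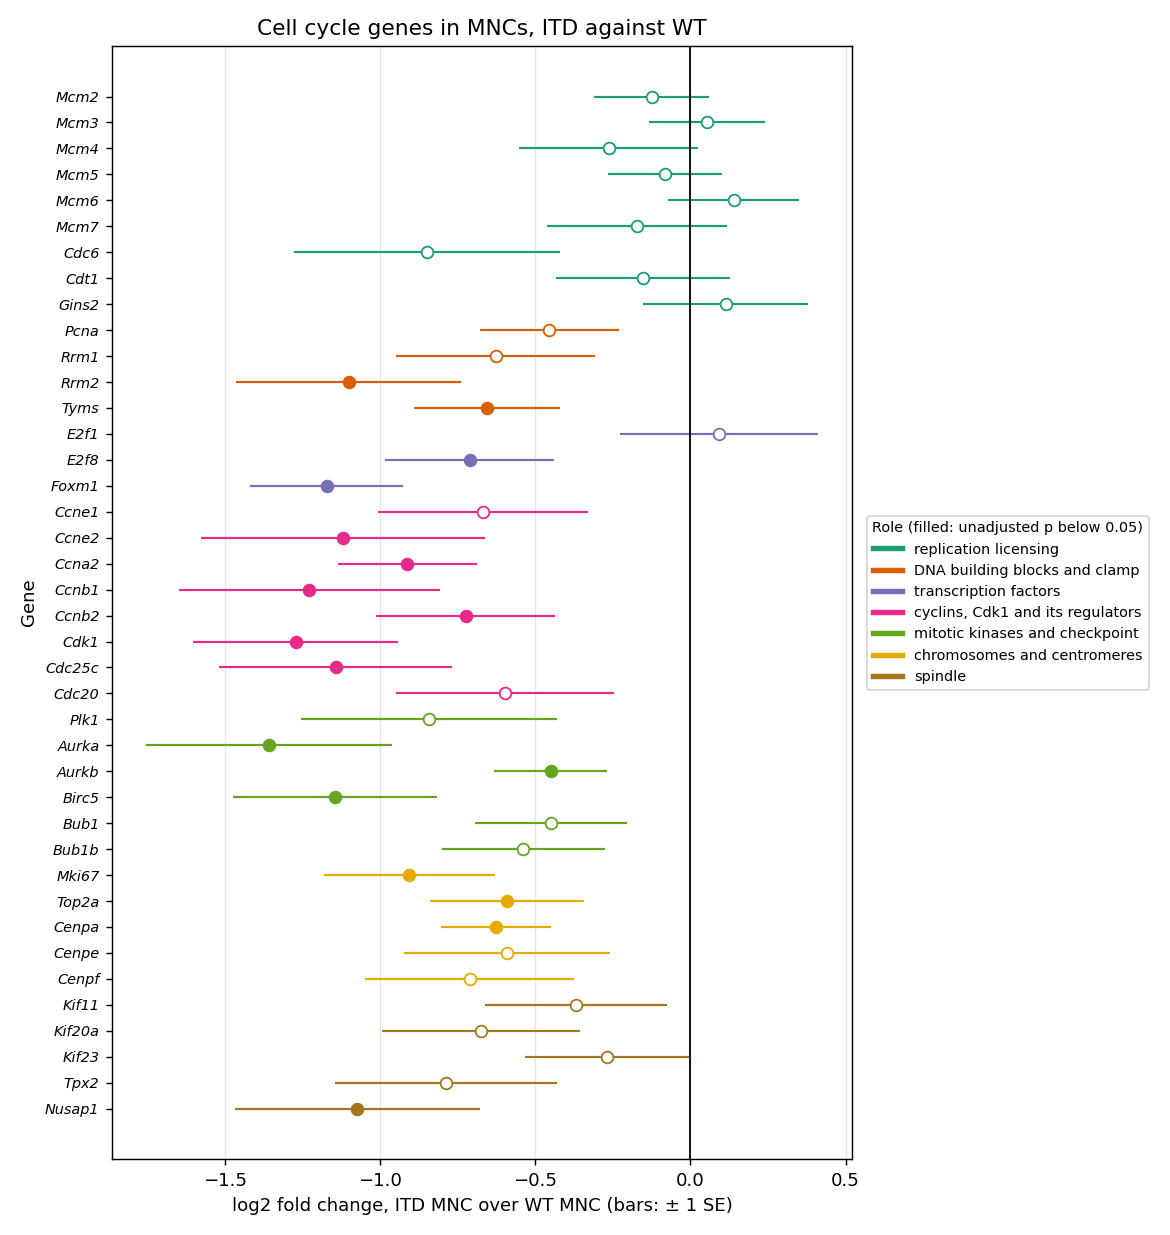
Log2 fold change of Flt3 ITD/ITD (ITD) over Flt3+/+ (WT) MNCs for the 40 genes, by edgeR, with bars of ± 1 SE and colors by role. Filled points had an unadjusted p below 0.05 (17 genes, all negative), and none had an adjusted p below 0.1.

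The difference in MNCs was carried by some of the libraries. Leaving out each library in turn left 35 to 38 of the 40 genes negative, with medians of -0.77 to -0.46, and 10 to 25 at an unadjusted p below 0.05. The fewest, 10, remained without Flt3+/+ replicate 3 (2.95% of all genes), then 11 without Flt3+/+ replicate 4 (3.80%) and 11 without Flt3 ITD/ITD replicate 3 (3.21%), and the most, 25, without Flt3+/+ replicate 1 (6.63%). With replicates 1 and 2 of each genotype alone, 29 of 40 were negative, the median was -0.13, and 1 had an unadjusted p below 0.05 (2.46% of all genes lower). With replicates 3 and 4 alone, 36 were negative, the median was -1.04, 26 had an unadjusted p below 0.05 (11.8% of all genes lower) and 9 were called lower (Aurka, Birc5, Ccnb1, Ccne2, Cdc25c, Cdk1, Nusap1, Plk1 and Rrm2), against 4.02% of all genes. These splits were chosen after the values were seen, and same-numbered libraries are not known to be pairs. The p-values and calls of the splits therefore describe the libraries and test nothing. The mitosis score was 6.72, 6.98, 7.79 and 7.54 in Flt3+/+ MNCs and 6.56, 6.70, 6.15 and 6.63 in Flt3 ITD/ITD MNCs. Replicates 3 and 4 thus held the highest Flt3+/+ scores and the lowest Flt3 ITD/ITD score, so a larger difference there followed from the choice. The replication score was 6.58, 6.87, 7.33 and 7.29 against 6.78, 6.55, 6.71 and 6.78.

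The scaling of libraries moved the values as well. TMM factors set the median of all genes to -0.01, whereas with library totals alone it was 0.18. On that scale 33 of the 40 genes were negative with a median of -0.41, the mitosis genes had a median of -0.48 and the replication genes of -0.01, and 11 had an unadjusted p below 0.05. Mcm2 (0.073), Mcm5 (0.14) and Mcm7 (0.074) were then on the other side of 0.

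Markers of marrow cell types varied among the same libraries, not all in the same way. The erythroid score was 1.06, 8.20, 10.3 and 9.95 in Flt3+/+ MNCs and 6.95, 7.76, 4.83 and 6.28 in Flt3 ITD/ITD MNCs, and the markers summed to 136 to 150764 RPKM and 2337 to 23160 RPKM. Flt3+/+ replicates 3 and 4, with the highest mitosis scores, had the highest erythroid scores, and Flt3 ITD/ITD replicate 3, with the lowest mitosis score, had the lowest erythroid score of its genotype. Flt3+/+ replicate 1 had the lowest erythroid score of all 8. Its mitosis score of 6.72 was the lowest of its genotype and nearly equal to the highest of Flt3 ITD/ITD, 6.70 in replicate 2. Flt3+/+ replicate 3, with the highest mitosis score, had the lowest sum of myeloid precursor markers of all 8 and the lowest sum of B cell progenitor markers of its genotype. All 13 erythroid markers in the table were lower in Flt3 ITD/ITD by sign (median -2.87, 2 at an unadjusted p below 0.05), as were 12 of 12 markers of B cell progenitors (median -1.17, 6 at an unadjusted p below 0.05). So were 10 of 10 of the mature neutrophil list, which holds granule genes of earlier stages as well (median -1.02, 1 at an unadjusted p below 0.05). Of 7 markers of myeloid precursors 5 were positive (median 0.66, 2 at an unadjusted p below 0.05). Summed B cell progenitor markers were at 513 to 1313 RPKM in Flt3+/+ and 248 to 849 in Flt3 ITD/ITD MNCs, those of mature neutrophils at 171809 to 211027 and 40246 to 180654, and those of myeloid precursors at 957 to 3205 and 2191 to 5087. No marker of these lists was called. The part of cell type shares in the cell cycle differences was not tested.

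**Figure D4:**
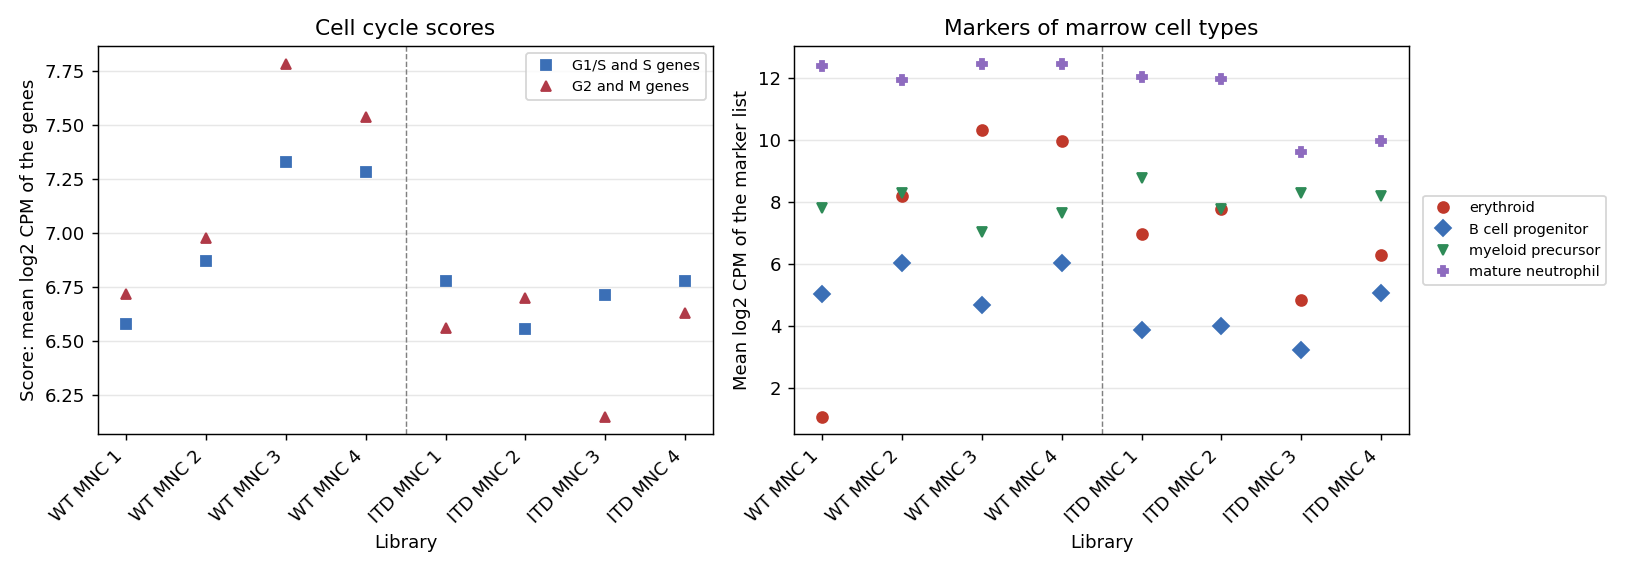
Left, replication (G1/S and S) and mitosis (G2 and M) scores of the 8 MNC libraries, as mean log2 CPM on an axis that does not start at 0. Right, mean log2 CPM of 4 lists of cell type markers in the same libraries, where Flt3+/+ (WT) replicates 3 and 4 have the highest erythroid values (10.3 and 9.95) and Flt3+/+ replicate 1 the lowest (1.06).

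Whether the genotype difference itself varied between populations was tested by interaction terms over all 40 genes. Comparing MNCs with ECs, none was called (0.0118% of all genes tested), and 4 had an unadjusted p below 0.05 in each direction (Mcm5, Gins2, E2f8 and Bub1 positive, Cdc20, Plk1, Cenpe and Kif11 negative). The share of all genes at that level is not given here. Gins2, E2f8, Bub1 and Cenpe failed the filter on low counts within ECs, where their highest libraries held 1230, 579, 1681 and 728 counts. Comparing MNCs with MSCs, none was called (0.00592%), with 1 positive (Aurka) and 3 negative (Tyms, Ccnb2 and Cenpe) at an unadjusted p below 0.05. Here too the share of all genes at that level is not given. Aurka, Ccnb2 and Cenpe failed the filter within MSCs. With DESeq2, 3 genes (Cenpe, E2f8 and Gins2; 2.99% of all genes) and 2 (Aurka and Cenpe; 2.15%) were called in these comparisons. Comparing MSCs with ECs, Kif11 was called by edgeR (0.379% of all genes tested), with a log2 difference between the genotype effects of -2.65 ± 0.64 (edgeR adjusted p = 0.0975), and DESeq2 called Kif11, Aurka, Gins2 and Mcm5 (5.55% of all genes). Values of Kif11 were 0.25, 0.49, 0.47, 0.96 and 2.19 RPKM in Flt3+/+ MSCs and 0.30, 0.30, 0.40, 0.30 and 0.34 in Flt3 ITD/ITD MSCs, opposite in direction to those in ECs given above. Without Flt3+/+ MSC replicate 5, which held the 2.19, or Flt3 ITD/ITD EC replicate 4, which held the 3.28, no gene was called, and in all the count of calls moved in 22 of the 28 comparisons that left out a library.

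Other cell cycle genes give the setting of the 40. Of 45 further replication genes, 31 were called higher in MNCs than in ECs and 37 than in MSCs, and none lower. The share of all genes called higher was 22.0% in each comparison. Of 58 further mitosis genes, 54 and 57 were higher and 1 was lower in each, Pttg1 (securin, -2.05 against ECs). Genes upstream of the waves were called higher less often. Of 10 G1 cyclins and kinases, Ccnd3 (2.83) and Cdk2 (1.64) were higher in MNCs than in ECs, near the 22.0% of all genes. Ccnd1 (-1.88) was lower. Of 17 genes of the Rb, E2F and DREAM families 6 were higher, with E2f2 (7.40) and Mybl2 (6.77), which encodes B-Myb, at the top. Among inhibitors of cyclin-dependent kinases, 3 of 5 were lower in MNCs than in ECs and 1 (Cdkn2d, 2.34) was higher. The share of all genes called lower is not given here. Cdkn1a (p21) had mean RPKM of 7.49 in MNCs, 92.7 in ECs and 124 in MSCs, and Cdkn1c (p57) of 0.152, 38.9 and 12.1.

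Between genotypes in MNCs none of these genes was called in any of the 5 lists (0.0144% of all genes tested). Of the 58 mitosis genes 57 were negative and 25 had an unadjusted p below 0.05, all lower (Cenpn, -1.02, edgeR unadjusted p = 0.00106). Of all genes tested, 5.0% were lower at that level. Of the 45 replication genes 32 were negative and 5 were at that level, all lower (Tk1, thymidine kinase, -0.81, edgeR unadjusted p = 0.00738). Among the 10 G1 genes 8 were positive and 3 were at that level, all higher, among them Ccnd2 (0.87, edgeR unadjusted p = 0.0188) and Cdk6 (1.83, edgeR unadjusted p = 0.0231). The 5.0% covers lower genes only, and the share of all genes higher at that level is not given here. Cdkn2d, an inhibitor of Cdk4 and Cdk6, differed by -1.35 (edgeR unadjusted p = 0.00443), and E2f2 by -0.90 (edgeR unadjusted p = 0.0134).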

How the data were processed

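RNA was measured in 28 libraries, grouped by population, genotype and replicate from their labels. Per the labels and methods, cDNA was amplified (SMARTer Ultra Low kit, 15 cycles) and sequenced as single reads of 51 bases. The submitters' processing notes name Bowtie, RSEM and mm10, and the methods state that reads mapping to several places were discarded. The authors deposited RSEM read counts without normalization, as whole numbers, and the authors deposited RPKM for the same genes. The counts were used for tests and scores and the RPKM for levels and for the fold rule.

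Tests were made in R 4.3.3 with edgeR 4.0.16 (TMM, filterByExpr, quasi-likelihood test). Populations and interactions were fitted over all 28 libraries, with equal weight for the genotypes, and genotypes within a population. The methods combined DESeq2 and edgeR; the alternatives here were DESeq2 1.42.0 and the exact test of edgeR. Scripts were tested on simulated data. No libraries looked like duplicates. Same-numbered libraries were not treated as pairs: correlations of their deviations ran from -0.07 to 0.06, and the labels give no shared animal.

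The 40 genes, the other lists and the tests were chosen with earlier results of these data known. Genes named in each role were those highest and lowest in MNCs and with the largest and smallest difference from ECs, together with genes at an unadjusted p below 0.05 between genotypes; others were chosen after their values were seen, as were the comparisons by replicates 1 and 2 or 3 and 4, by library totals alone, and without libraries that stood apart. Of the listed genes, the erythroid markers Hba-a1, Hbb-b1 and Ahsp and the mitosis gene Sgol2a were not used here. Amplified reads are not independent molecules, so floors cover counting error only. Promoters were those of RefSeq on GRCm38.p6, and gene ends those of GENCODE on GRCm38.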

Additional observations from a re-analysis of the deposited data

Results flagged for a closer look

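Within groups of 4 or 5 libraries, 18 of 88 groups examined (20.5%) had a library far from the others by Dixon's test. All were stromal. Most were RPKM of genes at or near 0 in most libraries of the group, where a single library with reads stands apart. No rate by chance is set beside the share, since the test supposes normal values and the same libraries recur. Flt3+/+ MSC replicate 5 had 34 of the 40 genes over 3 counts, where the other 4 libraries of its group had 25 to 27. Mki67 stood apart at 3.12 RPKM in Flt3+/+ EC replicate 1 (others at most 0.77), 6.17 in Flt3 ITD/ITD EC replicate 2 (at most 0.44), 0.12 in Flt3+/+ MSC replicate 5 (at most 0.01) and 0.27 in Flt3 ITD/ITD MSC replicate 3 (at most 0.01). Foxm1 stood apart at 0.26 RPKM in Flt3+/+ EC replicate 5 and 1.2 in Flt3+/+ MSC replicate 5. Cdk1 did so at 0.5 RPKM in Flt3 ITD/ITD EC replicate 2, 2.6 in Flt3+/+ MSC replicate 5 and 0.29 in Flt3 ITD/ITD MSC replicate 5. Mcm2 did so at 4.8 RPKM in Flt3+/+ EC replicate 2, 5.64 in Flt3 ITD/ITD EC replicate 1, 0.83 in Flt3+/+ MSC replicate 5 and 4.2 in Flt3 ITD/ITD MSC replicate 3. Ccne1 did so at 12.02 RPKM in Flt3+/+ EC replicate 4, 7.11 in Flt3 ITD/ITD EC replicate 5, 8.51 in Flt3+/+ MSC replicate 3 and 1.36 in Flt3 ITD/ITD MSC replicate 2. The libraries were not the same for each gene.

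The genotype difference of Kif11 differed between MSCs and ECs by an interaction term, with a log2 value of -2.65 ± 0.64 (MSCs minus ECs, edgeR adjusted p = 0.0975).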

How the results depend on the processing

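With DESeq2, 2 genes were called between genotypes in each population, and interactions gave 3 (MNCs against ECs), 2 (MNCs against MSCs) and 4 (MSCs against ECs), where edgeR gave 0, 0 and 1. The last was 0 with DESeq2's size factors, with no filter on low counts and with the replicate block, and 0 to 2 when libraries were left out singly. In MNCs edgeR's exact test called 2 and replicates 3 and 4 alone 9, a split chosen after the values were seen. With the replicate block, genotype calls stayed at 0 in all populations, 14 genes were called between MSCs and ECs where 16 were called without it, and Ccne1 turned to 0.76. Most MSC libraries correlated best with their own number, and in ECs and MNCs some did and some did not. Whether the numbers mark a shared animal or preparation is not known.

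Leaving out single libraries left 0 genotype calls, 37 to 38 calls for MNCs against ECs, 38 to 40 against MSCs and 13 to 20 for MSCs against ECs. Score differences ran from -0.93 to -0.30 (ECs), -0.43 to -0.04 (MSCs) and -0.72 to -0.41 (MNCs) between genotypes, from 5.80 to 6.13 for MNCs minus ECs, 6.48 to 6.68 for MNCs minus MSCs and -0.74 to -0.42 for MSCs minus ECs. MNCs minus MSCs was 7.08 with a prior count of 0.25 and 5.84 with one of 5. On log2(RPKM + 1), MNCs minus ECs was 3.81 and MNCs minus MSCs 4.22. The MNC genotype difference was -0.15 in replicates 1 and 2 and -0.97 in 3 and 4.

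Directions turned for single genes. In MNCs between genotypes, Mcm2 was 0.073 by library totals alone and 0.066 in replicates 1 and 2, where Ccne2 was 0.15. Between MSCs and ECs, Flt3+/+ libraries alone gave Kif11 0.50, Gins2 -0.52 and Ccnb2 -1.19, and Ccnb1 was 2.89 without the 3 libraries named above. Leaving out single libraries moved Mki67 between genotypes in ECs from -2.10 to 2.71, Foxm1 in MSCs from -1.50 to 1.96 and Pcna in MSCs from -0.38 to 0.11, and between MSCs and ECs moved Ccne1 from -2.36 to 2.34, Mcm2 from -5.00 to 1.16 and Ccnb2 from -1.95 to 3.88. The cause of these changes was not tested, apart from the fewer libraries of each. The depth limits genes at or under 3 counts in stroma.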
